A study of Homo sapiens with 9 samples.

Results

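The genes described here are the protein-coding ZNF genes of human chromosome 19. Members were taken from the gene table by biotype, by chromosome and by a name that starts with ZNF and holds no hyphen, which gave 246 of the 58735 genes in the table. They make up 48.2% of the 510 protein-coding ZNF genes named in this way on all chromosomes. The cells were MIA PaCa-2, a human line from a pancreatic cancer that is labelled as wild type, and their RNA was sequenced after 24 h in 1 μM SCH772984 (an inhibitor of ERK1 and ERK2), in 1 μM compound 1 (an inhibitor of TBK1 and IKKε) or in 0.1% DMSO (the vehicle). Each of the 3 groups had 3 libraries. All of them come from this 1 line at 1 dose and 1 time, and the labels do not say whether the libraries came from separate cultures, so p-values measure only the spread between these libraries.

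Most of these genes encode proteins with a row of C2H2 zinc fingers, each of which contacts a few bases of DNA, behind a KRAB domain. The KRAB domain binds TRIM28 (KAP1), which brings in the histone methyltransferase SETDB1 and HP1 proteins and is best known for keeping retrotransposons silent. On chromosome 19 the genes lie in tandem clusters that grew by duplication, so that neighbours are often each other's closest relatives. By translation of the GENCODE coding sequences, 212 of the 246 members hold a KRAB stretch and 34 do not, and the median member has 12 fingers (range 0 to 36).

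Library totals were 9464432 to 10286223 counts in DMSO, 9652741 to 9840769 with compound 1 and 11056977 to 13887859 with SCH772984. Raw counts of the SCH772984 libraries thus rest on a greater depth. The members together took 0.171 to 0.179% of the counts in DMSO, 0.171 to 0.193% with compound 1 and 0.213 to 0.222% with SCH772984. Mitochondrially encoded genes took 3.33 to 3.98%, 3.41 to 3.92% and 6.23 to 7.52%, and the part of this rise in the results was not tested. Replicate 1 of compound 1 stood apart from its group (chi-square per degree of freedom 11.1 and 8.29 against the other two libraries, 2.78 between those), so the number of members called in each comparison with compound 1 is also given without it. Of 10 known ERK output genes, the 9 that could be tested were all lower with SCH772984 (median log2 fold change -5.80) and none was called with compound 1. The epithelial keratins KRT8 and KRT18 and the mesenchymal filament VIM were abundant, and CDKN2A, which is deleted in this line, was at 0 in every library. Of the markers of other cell types, the leukocyte genes PTPRC and CD3E, the acinar genes PRSS1 and CPA1 and the islet genes INS and GCG were at 0 everywhere, whereas endothelial CDH5 (3.85 CPM in DMSO) and fibroblast COL1A2 (481.5 CPM) were not; with SCH772984 CDH5 fell by 4.79 and COL1A2 rose by 1.10 on the log2 scale. In all, 11 of the 18 markers listed had at most 3 counts in every library, and the part of the other 7 in the results was not tested. The list also held KRT19, CD68, PECAM1, COL1A1 and DCN, which are not described one by one, so some expressed markers are unnamed here. CPM are counts per 1000000 counts of the TMM-scaled library.

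Most members were expressed at low levels. In DMSO, 177 of the 246 reached a mean of 1 CPM, 58 reached 10 CPM and 2 reached 50 CPM. The median tested member stood at 1.15 CPM per kb of exon, compared with 5.91 CPM per kb for the other protein-coding genes tested. At the other end, 39 members had at most 3 counts in each of the 9 libraries and 19 of these had none, among them ZNF43. A run of 11 neighbouring members from ZNF43 to ZNF730 (21.80 to 23.15 Mb) held at most 2 counts in any library. A count of 0 also depends on how the reads were assigned, as for ZNF320, which was at 0 throughout and shares 93.3% of its 100-base windows with other transcripts, most with its neighbour ZNF468. Such windows are found in 86 members, and they exceed 10% of the transcript in 31. In 60 members more than 10% of the exonic bases also lie in another gene.

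The most abundant members per kb in DMSO were ZNF146 (25.2 CPM per kb), ZNF787 (21.8), ZNF428 (12.2), ZNF579 (11.2) and ZNF865 (9.67), none of which has a KRAB stretch. ZNF146 (OZF), a protein made almost only of zinc fingers, had 974, 982 and 962 counts in the DMSO libraries, 753, 954 and 1049 with compound 1 and 706, 666 and 688 with SCH772984. The SCH772984 libraries did not overlap DMSO, and the level fell from 104 ± 4.33 to 53.6 ± 6.62 CPM (SD, n = 3). ZNF579 stayed near 37 CPM in both groups (37.3 ± 4.31 and 37.9 ± 5.23, SD, n = 3), with overlapping libraries, but its log2 fold change of 0.02 turned to -0.29 with the GC trend removed (edgeR adjusted p = 0.015).

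The first comparison asked what ERK inhibition did to these genes. SCH772984 against DMSO could be tested for 193 members, of which 90 rose and 28 fell in edgeR (quasi-likelihood test, Benjamini-Hochberg adjusted p under 0.05). Over all 13834 genes tested, 37.2% rose and 35.5% fell. The members' median log2 fold change was 0.39, compared with 0.03 for all genes and -0.02 for protein-coding genes. Changes of at least 2-fold were 39 rises and 7 falls. The remaining 53 members had too few counts to be tested (at most 20 in any library), and a gene near 0 in DMSO could pass this filter only by being higher with SCH772984. Of the members tested, 14 did not pass the filter in the DMSO and compound 1 libraries, and 10 of these are among the 90 rises. Without these 14, a restriction chosen after seeing the data, 80 of 179 members rose and 28 fell (44.7% and 15.6%, median log2 fold change 0.32), where 33.7% and 38.5% of all 12752 genes under that filter did. Because values are relative to the library, and because RNA was taken from whole cultures, fewer cells with a transcript and less transcript per cell cannot be told apart.

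Set side by side and without a test, the other gene sets were more evenly split. Of the 264 protein-coding ZNF genes on other chromosomes, 217 were tested, 66 rose and 65 fell (median 0.02). Of the other protein-coding genes of chromosome 19, 729 were tested, 311 rose and 275 fell (median 0.06). Among members with a KRAB stretch 82 of 164 rose and 19 fell (median 0.45), whereas among those without one 8 of 29 rose and 9 fell (median 0.12). The 14 members that passed the filter only through the SCH772984 libraries all hold a KRAB stretch, and without them 72 of 150 members with one rose and 19 fell (median 0.41). The counts keep this shape in the members with under 10% shared windows and under 10% exon overlap, of which 65 of 145 rose and 20 fell (median 0.35), or 58 of 134 and 20 without those that entered through the SCH772984 libraries (median 0.28).

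The tilt moved with expression level. Across all 13834 genes, Spearman's rho between the log2 fold change and the level per kb, taken from the compound 1 libraries that this comparison does not use, was -0.53, and across the 193 members it was -0.55; genes are not independent replicates. Among the 64 members of the lowest level (0.0591 to 0.835 CPM per kb), 39 rose and 1 fell (60.9% and 1.56%), and among the 1707 other protein-coding genes of that range 62.2% rose and 6.80% fell. In the middle range (0.835 to 1.79 CPM per kb) 34 of 64 members rose and 6 fell (53.1% and 9.38%), beside 53.1% and 14.5% of 1122 others. In the highest range (1.79 to 23.3 CPM per kb) 17 of 65 members rose and 21 fell (26.2% and 32.3%), beside 32.6% and 42.3% of 6620 others. Low genes that entered only through the SCH772984 libraries add rises to the lowest range. Over the genes that passed the filter without those libraries, rho was -0.44 across all genes and -0.49 across the 179 members. In the lowest range 29 of 50 members then rose and 1 fell (58.0% and 2.00%), beside 54.8% and 9.03% of 1263 others. In each range a smaller share of members than of others fell with or without this restriction, a difference that was not tested. The members without a KRAB stretch also stood higher (median 3.79 CPM per kb, 24 of 29 in the highest range) than those with one (median 1.06), and the part of level in the difference between these kinds was not tested.

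**Figure D1:**
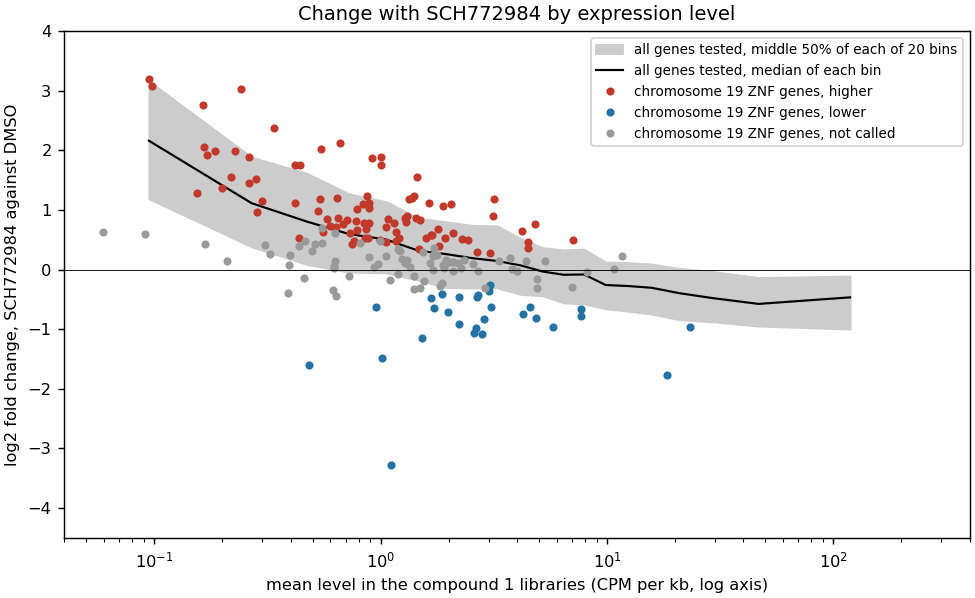
The log2 fold change of SCH772984 against DMSO (vertical axis) is plotted against the mean level in the compound 1 libraries in CPM per kb (logarithmic horizontal axis). Points are the 193 tested members by call, and the line and band are the median and the middle 50% of all genes tested in 20 bins of level; most members follow the band, which slopes down with level.

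Along the chromosome the members fell into 16 position clusters, a new one being opened wherever the next start lay more than 1 Mb away. The clusters differed in how many members rose. Among the clusters of 5 or more members the largest share was in cluster 15, with 39 members whose starts lie between 51.57 and 53.52 Mb, where 22 of 29 tested members rose and 1 fell (median 0.77). In cluster 16, the 59 members at the end of the long arm (55.48 to 58.47 Mb), 17 of 52 rose and 11 fell (median 0.15). In cluster 5, 37 members near the centromere (19.67 to 24.03 Mb) that all hold a KRAB stretch, 6 of 20 rose and 2 fell (median 0.10), and 15 were at the floor of 3 counts in all libraries. Over all genes tested 37.2% rose and 35.5% fell, and the shares of rises in clusters 16 (32.7%) and 5 (30%) lay near this. Over the members that passed the filter without the SCH772984 libraries, 20 of 27 rose and 1 fell in cluster 15. Under the same restriction 16 of 51 rose and 11 fell in cluster 16, and 6 of 19 rose and 2 fell in cluster 5. Of all genes under that filter 33.7% rose and 38.5% fell. No test was made between clusters.

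The counts of clusters 15 and 16 were also taken within the ranges of level, without a test. Of the members in the lowest range, 11 of 12 rose in cluster 15 and 3 of 11 in cluster 16, or 9 of 10 and 2 of 10 over the members that passed the filter without the SCH772984 libraries. In the middle range 8 of 9 rose in cluster 15 and 8 of 17 in cluster 16, where 2 fell. In the highest range 3 of 8 rose and 1 fell in cluster 15, and 6 of 24 rose and 9 fell in cluster 16. The median level in this range was 2.045 CPM per kb in cluster 15 and 3.228 in cluster 16. The part of level in the difference between the clusters was not tested. The summed level of cluster 15 was 201.1 to 231.9 CPM in DMSO, 207.3 to 260.7 CPM with compound 1 and 327.0 to 362.0 CPM with SCH772984, a ratio of means of 1.61 for SCH772984, with no overlap. That of cluster 16 was 606.4 to 632.1, 580.8 to 611.4 and 572.4 to 596.1 CPM, a ratio of 0.947.

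**Figure D2:**
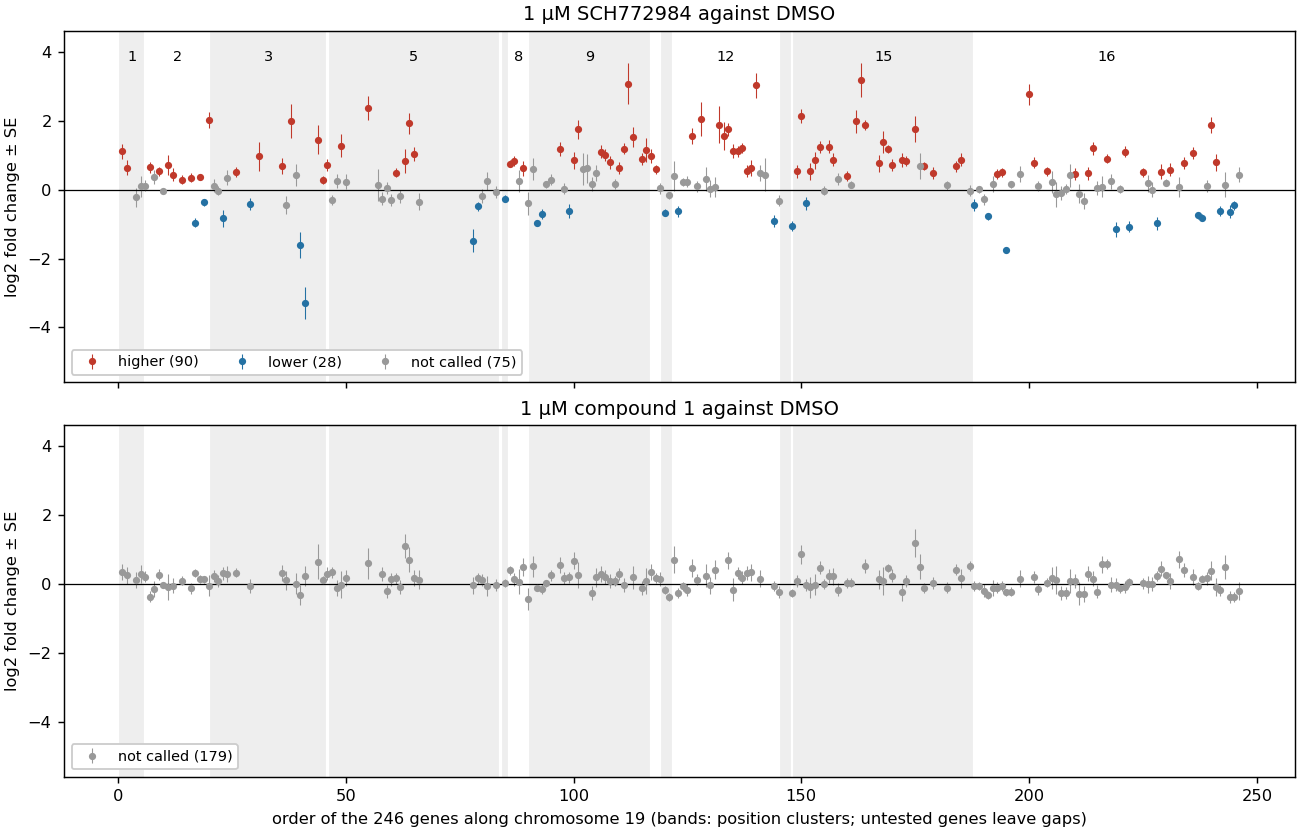
Log2 fold change with its standard error (vertical axis) of each tested member against DMSO, in the order of the genes along chromosome 19 (horizontal axis, bands mark position clusters and clusters of 5 or more members are numbered). With SCH772984 (top) 90 members were called higher and 28 lower, with red points dense in clusters 9, 12 and 15; with compound 1 (bottom) none of 179 was called.

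Rises stood side by side in several clusters. In cluster 15, 10 tested members in a row from ZNF610 to ZNF888 (52.34 to 52.92 Mb) rose, with 4 untested members among them, by 0.71 to 3.20 on the log2 scale. In cluster 12 (43.53 to 45.07 Mb) 9 in a row from ZNF223 to ZNF233 (44.05 to 44.28 Mb) rose by 0.54 to 3.03, and in cluster 9 (36.18 to 37.74 Mb) 6 in a row from ZNF570 to ZNF573 rose by 0.63 to 3.08. Each of these rows includes members that passed the filter only through the SCH772984 libraries, with the largest rise of each row among them. In cluster 12 all 11 rises were among the 18 tested members with a KRAB stretch (median 0.87), and the 5 without one held 0 rises and 2 falls (median -0.32). Of these 18 members 5 passed the filter only through the SCH772984 libraries, and 7 of the other 13 rose (median 0.54). Over all clusters 119 of 179 pairs of neighbouring tested members changed with the same sign (66.5%, where the share of positive values alone gives 62.1%), and rho between neighbours was 0.26. These pairs also include members that passed the filter only through the SCH772984 libraries, so the values are a description and were not tested.

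**Figure D3:**
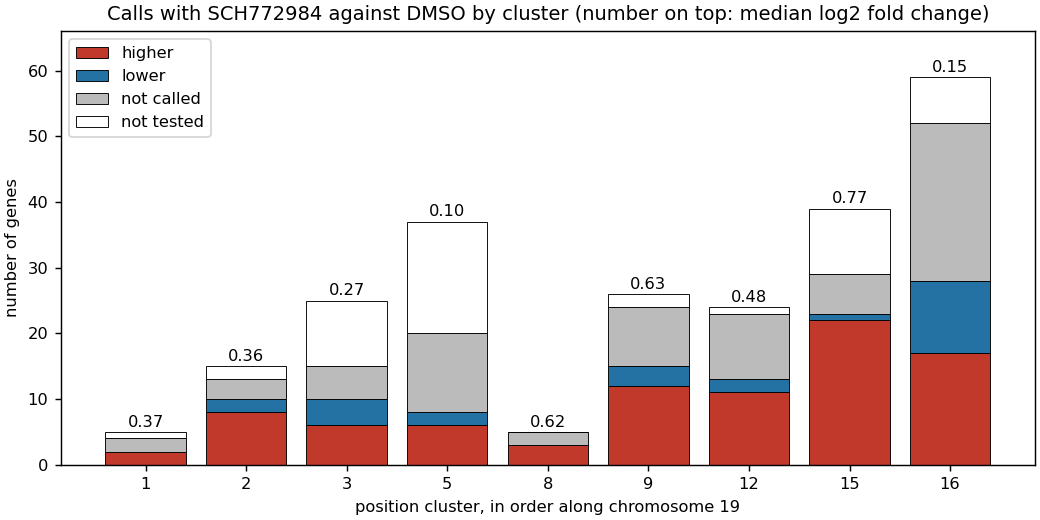
Number of members (vertical axis) called higher, called lower, not called and not tested with SCH772984 in each position cluster of 5 or more members (horizontal axis), with the median log2 fold change of the tested members on top. Cluster 15 has the largest share of rises (22 of 29 tested) and cluster 16 the most falls (11).

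The largest rises, among members of at least 1 CPM on average, started from very few counts. ZNF880, ZNF233 and ZNF471 passed the filter only through the SCH772984 libraries, so that their values are given as a description. ZNF880 (cluster 15, 52369917 to 52385795, hg38), a KRAB member with 13 fingers, had 4, 4 and 0 counts in DMSO, 4, 2 and 4 with compound 1 and 29, 41 and 35 with SCH772984. Its SCH772984 libraries lay above all the others, and the log2 fold change was 3.20 ± 0.49 (SE). ZNF233 (cluster 12, 44259880 to 44275317) had 7, 7 and 2 counts, then 10, 8 and 10, then 55, 62 and 67, a log2 fold change of 3.03 ± 0.36 without overlap. ZNF471 (cluster 16, 56507843 to 56530221) had 6, 11 and 8 counts in DMSO and 72, 72 and 96 with SCH772984. That is a log2 fold change of 2.76 ± 0.30, and the compound 1 libraries were uneven, with 6, 21 and 5 counts.

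ZNF737 in cluster 5 (20535825 to 20565809) had 9, 3 and 10 counts in DMSO, 14, 11 and 9 with compound 1 and 48, 47 and 66 with SCH772984 (log2 fold change 2.37 ± 0.35). ZNF577 in cluster 15 (51804816 to 51890950) had 28, 19 and 30 counts in DMSO and 119, 177 and 174 with SCH772984 (2.13 ± 0.21). For ZNF577 the compound 1 libraries, with 37, 64 and 41 counts, also lay above DMSO (0.86 ± 0.27, edgeR adjusted p = 0.149) and below SCH772984, and without compound 1 replicate 1 ZNF577 was called (0.99, edgeR adjusted p = 0.0176). ZNF846 in cluster 2 (9751993 to 9793180) went from 2.21 ± 0.54 to 9.02 ± 1.54 CPM with SCH772984 (SD, n = 3) and stood at 2.14 ± 0.32 CPM with compound 1. In the other clusters of 5 or more members, and under the same limit of 1 CPM on average, the leading rises were ZNF554 in cluster 1 (1.11 ± 0.21), ZNF563 in cluster 3 (1.99 ± 0.50, also a member that passed the filter only through the SCH772984 libraries), ZNF181 in cluster 8 (0.83 ± 0.15) and ZNF345 in cluster 9 (1.75 ± 0.27).

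The deepest fall was that of ZNF443 (cluster 3, 12429707 to 12441112), a KRAB member with 16 fingers. It had 28, 19 and 26 counts in DMSO, 28, 39 and 20 with compound 1 and 4, 3 and 3 with SCH772984, so that the treated libraries were left with hardly any reads. The log2 fold change was -3.29 ± 0.46 (SE, edgeR adjusted p = 2.09e-08). Its neighbour ZNF799 (12390016 to 12401271) had 38, 26 and 23 counts in DMSO and 3, 17 and 20 with SCH772984, a log2 fold change of -1.59 ± 0.38, with SCH772984 replicate 1 well below the other two. Each of these 2 genes is the closest relative of the other by promoter among the members. Their RefSeq promoters (GRCh38.p14, 250 bases before to 50 after the start) align over 215 bases with 197 identical (91.6%), and the first 100 aligned bases are printed here in gene orientation, from the minus strand, to show how alike they are. For ZNF443 they are chr19:12441172-12441271 and for ZNF799 chr19:12401335-12401434.
ZNF443: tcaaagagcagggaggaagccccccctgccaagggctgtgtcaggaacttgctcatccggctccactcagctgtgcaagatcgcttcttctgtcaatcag
ZNF799: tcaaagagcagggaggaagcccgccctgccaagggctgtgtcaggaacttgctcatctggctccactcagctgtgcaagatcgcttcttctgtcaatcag

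In ZNF443 the aligned stretch starts at the edge of the promoter window, 250 bases before the start, so it may reach further upstream. In ZNF799 it starts 163 bases before the start. These positions depend on the start used for each gene. Likeness of promoters went only partly with likeness of response. A closest relative by promoter (blastn) was found for 111 members, in each case within the same cluster, and of the 48 such pairs with both genes tested 36 changed with the same sign (where the share of positive values alone gives 60.5% of pairs; rho 0.28). By protein (blastp, which aligned some pairs differently in each direction, so that relatives are approximate) 202 of 245 closest relatives lay in the same cluster, and 97 of 135 pairs had the same sign (71.9%, where the share of positive values alone gives 63.1%; rho 0.18). Both kinds of pairs were drawn from all tested members, with those that passed the filter only through the SCH772984 libraries. These shares are a description and were not tested.

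The other falls among the 6 largest were in clusters 5 and 16. ZNF787 (cluster 16, 56087366 to 56121280), a member without a KRAB stretch, had 760, 749 and 733 counts in DMSO, 723, 542 and 664 with compound 1 and 288, 276 and 359 with SCH772984. The level fell from 80.2 ± 2.39 to 23.7 ± 0.426 CPM (SD, n = 3), a log2 fold change of -1.76 ± 0.08 (SE, edgeR adjusted p = 4.87e-23). ZNF724 in cluster 5 fell by 1.48 on the log2 scale (SE 0.33), and 52.1% of its 100-base windows are shared with another transcript. ZNF530 (57599885 to 57612722) had 81, 85 and 51 counts in DMSO and 38, 40 and 59 with SCH772984, and ZNF551 (57681969 to 57717301) had 127, 115 and 118 against 79, 77 and 81. Scaled to library size neither overlapped, with log2 fold changes of -1.14 ± 0.22 and -1.07 ± 0.16. Further leading falls of clusters were ZNF121 in cluster 2 (-0.96 ± 0.13) and ZNF180 in cluster 12 (-0.91 ± 0.17).

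**Figure D4:**
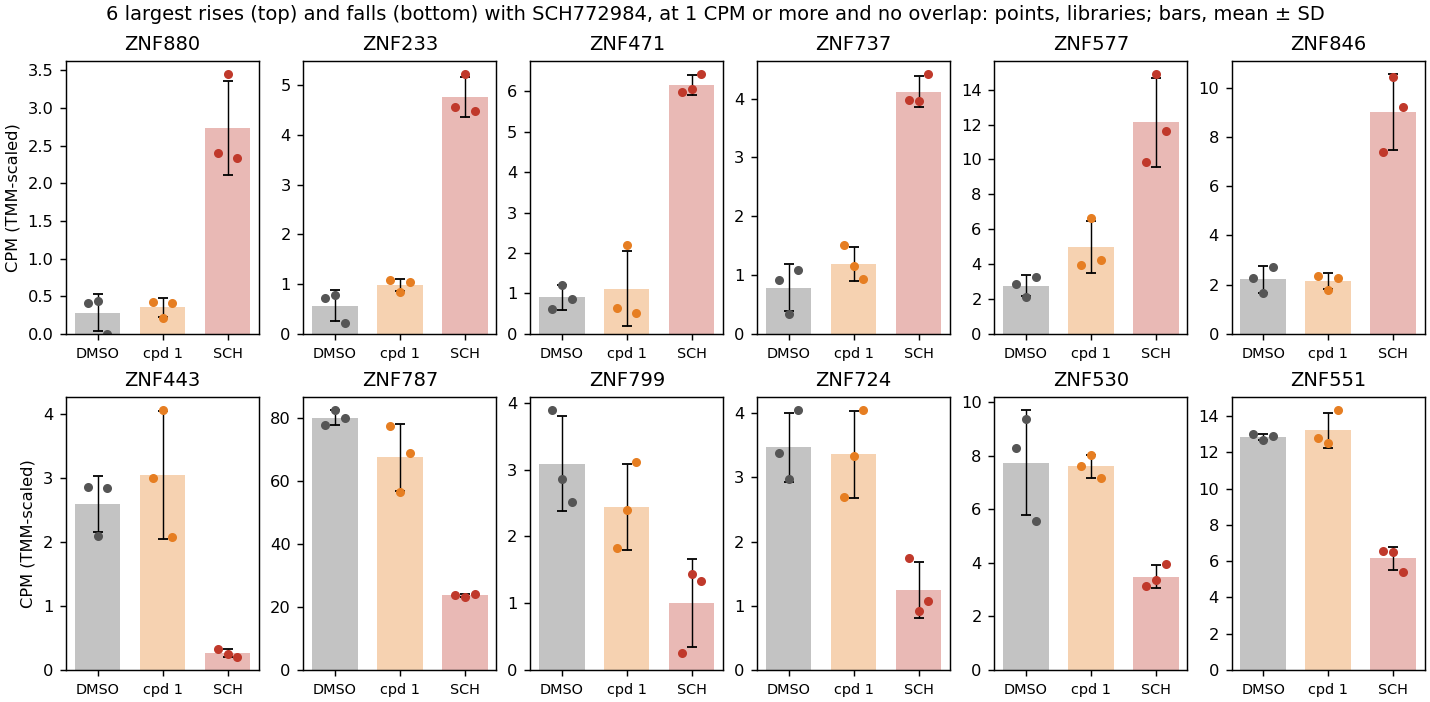
TMM-scaled CPM (vertical axes, each from 0) of the 6 members with the largest rises (top row) and the 6 with the largest falls (bottom row) with SCH772984, among those of at least 1 CPM on average whose SCH772984 libraries did not overlap DMSO; points are the 3 libraries of each group, bars the mean and whiskers the SD. The choice required SCH772984 points apart from DMSO, and the compound 1 points (cpd 1), which it did not use, lie near DMSO in most.

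Some members have a known role. Of 20 such genes listed from background knowledge, 14 were tested, 4 rose and 4 fell (28.6% each way, beside 37.2% and 35.5% of all genes; median -0.00). ZNF91, a repressor of SVA elements, had 155, 148 and 134 counts in DMSO, 129, 198 and 169 with compound 1 and 138, 132 and 165 with SCH772984. In CPM the SCH772984 libraries (11.2 ± 0.215, SD, n = 3) all lay below DMSO (15.6 ± 0.867), and the log2 fold change was -0.48 ± 0.14 (edgeR adjusted p = 0.0019). ZNF93, a repressor of LINE-1 elements, had 1 to 9 counts in the 9 libraries and could not be tested.

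ZNF274, which binds the 3′ ends of zinc finger genes and recruits SETDB1 there, fell from 37.3 ± 1.44 to 22.3 ± 0.569 CPM (-0.74 ± 0.10). ZNF473, a factor of histone pre-mRNA processing, fell from 21.4 ± 1.21 to 10.3 ± 0.744 CPM (-1.05 ± 0.13), and its libraries did not overlap DMSO. ZNF649 was called lower (-0.40 ± 0.18, edgeR adjusted p = 0.0413), a call that was lost in most of the other settings tried. ZNF808, known for its role in pancreas development, rose from 3.11 ± 1.02 to 5.32 ± 0.424 CPM (0.77 ± 0.24), and ZNF83 and ZNF432 rose by 1.19 and 1.24 on the log2 scale. ZNF175 (OTK18) rose by 0.53 (SE 0.19), and the call was lost without DMSO replicate 2 or SCH772984 replicate 2 (0.45 and 0.39, edgeR adjusted p = 0.0518 and 0.0961). ZNF304 stood at 10.7 ± 0.761 CPM in DMSO and 10.9 ± 0.691 with SCH772984 (0.02 ± 0.15, interval of 2 SE each way -0.28 to 0.32).

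The partners of these proteins were measured in the same libraries. TRIM28 itself had 11352, 10524 and 10014 counts in DMSO, 8797, 7461 and 7537 with compound 1 and 6504, 6721 and 7785 with SCH772984. The levels were 1139 ± 38.7, 835.0 ± 95.6 and 542.1 ± 22.4 CPM (SD, n = 3), with all 3 groups apart from each other. SCH772984 changed it by -1.08 ± 0.06 on the log2 scale and compound 1 by -0.45 ± 0.07 (edgeR adjusted p = 0.0134), and TRIM28 was the one gene of the list called with compound 1. SETDB1 stood at 28.5 ± 1.04 CPM in DMSO and 30.4 ± 1.12 with SCH772984 (0.09 ± 0.10, edgeR adjusted p = 0.423). Of the 22 partners and heterochromatin factors listed, 21 were tested and 3 rose and 11 fell with SCH772984 (14.3% and 52.4%, beside 37.2% and 35.5% of all genes tested). The falls included the HP1 genes CBX1 (-0.88), CBX3 (-0.99) and CBX5 (-0.67), the methyltransferases SUV39H1 (-1.76) and DNMT1 (-1.69) and UHRF1 (-2.49). The rises were ATF7IP (0.53), a cofactor of SETDB1, the remodeller CHD3 (1.41) and ATRX (0.63). With 3 libraries a group, any link between these changes and those of the members was not tested.

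The promoters were searched for short motifs, since ETS family factors such as ETV4 and ETV5 lie downstream of ERK. RefSeq promoters were matched to 215 members by symbol. The ETS 8-mer CCGGAAGT (both strands) was found in 45 of them (20.9%), compared with 4.14% of all 35114 promoters. The set of all promoters was not filtered by gene type, whereas all members are protein-coding. The median number of CpG was 20 in the members' promoters and 14 in all promoters. The part of these differences in the motif shares was not tested. Of the other motifs, AP-1 (TGAGTCA or TGACTCA, which are each other's reverse complement) was found in 2.33% of the members and 4.95% of all promoters, NRF1 (GCATGCGC) in 4.19% and 3.05%, and YY1 (AAGATGGC) in 6.51% and 2.89%. The ETS 8-mer was unevenly spread, with 26 of 54 in cluster 16, 6 of 24 in cluster 9, 5 of 20 in cluster 12, 5 of 32 in cluster 15 and 0 of the 48 matched members of clusters 1, 2 and 5. In 31 members it lay from 30 bases before to 20 bases after the start (14.4%, and 1.75% of all promoters).

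**Figure D5:**
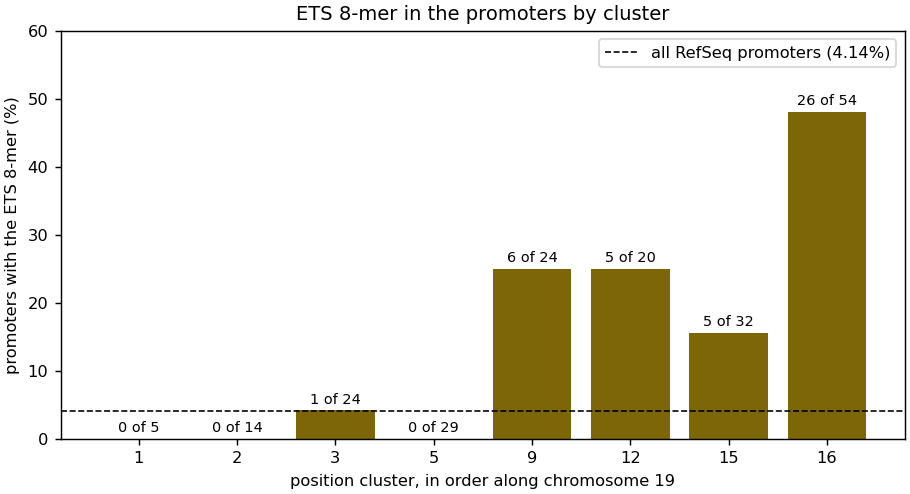
Share of RefSeq promoters with the ETS 8-mer on either strand (vertical axis, percent) in each position cluster of 5 or more matched members (horizontal axis), with the counts on the bars. The dashed line is the share over all RefSeq promoters (4.14%), and cluster 16 stands highest with 26 of 54.

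The 13 members of cluster 16 that were called with SCH772984 and hold the 8-mer this close to the start are printed to show where it lies in genes that fell and in genes that rose. Each line gives 50 bases from 30 before to 20 after the start (GRCh38.p14), 5′ to 3′ on the strand of the gene, and the capitals mark the 8-mer, here read as its reverse complement. The first 7 lines are genes that fell and the last 6 genes that rose. The call of ZNF324 was lost with scaling by library size alone (-0.285, edgeR adjusted p = 0.0669).
ZNF787, chr19:56121276-56121325, minus: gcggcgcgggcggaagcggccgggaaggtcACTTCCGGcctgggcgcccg
ZNF530, chr19:57599855-57599904, plus: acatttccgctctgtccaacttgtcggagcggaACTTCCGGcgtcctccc
ZNF551, chr19:57681947-57681996, plus: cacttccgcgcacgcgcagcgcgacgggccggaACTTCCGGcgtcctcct
ZNF865, chr19:55605617-55605666, plus: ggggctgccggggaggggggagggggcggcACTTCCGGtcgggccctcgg
ZNF274, chr19:58183031-58183080, plus: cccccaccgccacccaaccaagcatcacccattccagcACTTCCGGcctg
ZNF324B, chr19:58451592-58451641, plus: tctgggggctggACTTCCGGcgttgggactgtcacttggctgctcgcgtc
ZNF324, chr19:58467050-58467099, plus: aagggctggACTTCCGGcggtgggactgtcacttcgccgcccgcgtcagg
ZNF776, chr19:57746785-57746834, plus: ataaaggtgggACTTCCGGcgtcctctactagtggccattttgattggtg
ZNF814, chr19:57889018-57889067, minus: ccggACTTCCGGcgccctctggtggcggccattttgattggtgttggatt
ZNF264, chr19:57191470-57191519, plus: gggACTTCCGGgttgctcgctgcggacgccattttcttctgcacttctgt
ZNF470, chr19:56567438-56567487, plus: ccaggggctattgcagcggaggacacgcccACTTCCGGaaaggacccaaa
ZNF550, chr19:57559844-57559893, minus: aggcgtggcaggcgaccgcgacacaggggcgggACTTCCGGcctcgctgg
ZNF419, chr19:57487720-57487769, plus: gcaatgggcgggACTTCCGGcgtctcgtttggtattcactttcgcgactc

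Over all tested members the median log2 fold change with SCH772984 was 0.21 in the 42 with the 8-mer and 0.43 in the 130 without. The 8-mer was found in 9 of 26 members that fell (34.6%), 20 of 70 that were not called (28.6%) and 13 of 76 that rose (17.1%). Within cluster 16 it was in the promoters of 8 of the 11 members that fell, 7 of 14 that rose and 10 of 22 that were not called, and the median log2 fold change was 0.14 over the 25 tested members with it and 0.13 over the 22 without. Outside cluster 16 it was in 6 of 62 members that rose, in 1 of 15 that fell and in 10 of 48 that were not called. A match is a description of the sequence and does not show a factor bound there, and 1 start per gene was searched.

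The second comparison asked what inhibition of TBK1 and IKKε did. With compound 1, 179 members were tested and none was called at an adjusted p under 0.05, by edgeR or by DESeq2; the smallest adjusted p of a member was 0.0629. Over all 12849 genes tested, edgeR called 0.49% higher and 0.374% lower. At an unadjusted p under 0.05, 19 members were higher and 7 lower, where 7.35% and 7.69% of all genes were. The 3 compound 1 libraries lay above the 3 DMSO libraries in 27 members and below them in 7, where 10.3% and 10.6% of all genes did so. The median log2 fold change was 0.11, and the tested members ranged from -0.44 to 1.18. Intervals of 2 SE each way ran at the median from -0.30 to 0.52. Those of 16 members reached a 2-fold rise and that of 1 a 2-fold fall. Changes of that size were thus not detectable in all members at this depth. Without replicate 1 of compound 1, 6 members were called higher and 3 lower.

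The members nearest to a call were ZNF550, ZNF83 and ZNF331, and all 3 were called higher with no filter, with a replicate block (edgeR adjusted p = 0.0228, 0.0233 and 0.0253), with the length trend removed and without compound 1 replicate 1. ZNF550 (57535257 to 57559863) had 101, 95 and 104 counts in DMSO, 137, 161 and 157 with compound 1 and 241, 239 and 301 with SCH772984. The groups rose in that order without overlap in CPM, with a log2 fold change of 0.57 ± 0.14 for compound 1 (edgeR adjusted p = 0.0629) and 0.90 ± 0.13 for SCH772984. ZNF83 had 178, 151 and 188 counts, then 225, 240 and 261, then 436, 583 and 619 (0.46 ± 0.12 with compound 1, edgeR adjusted p = 0.0754). ZNF331, an imprinted gene, had 114, 106 and 143 counts in DMSO and 153, 184 and 196 with compound 1 (0.53 ± 0.15, edgeR adjusted p = 0.108). In the SCH772984 libraries ZNF331 had 131, 164 and 203 counts, which in CPM overlapped DMSO (-0.03 ± 0.15). The falls nearest to a call were ZNF526 (-0.37 ± 0.11), ZNF865 (-0.33 ± 0.11) and ZNF324 (-0.39 ± 0.14), with edgeR adjusted p = 0.137, 0.167 and 0.204. Without compound 1 replicate 1 the calls lower were ZNF865 (-0.45), ZNF787 (-0.35) and ZNF444 (-0.41), with edgeR adjusted p = 0.00197, 0.00268 and 0.0196.

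Whether the inhibitors differed was tested by comparing them directly, since both comparisons above use the same DMSO libraries. In SCH772984 against compound 1, 193 members were tested, 73 were higher with SCH772984 and 25 lower (median log2 fold change 0.29), where 33.7% and 32.6% of all 13863 genes tested were. Here too 14 members passed the filter only through the SCH772984 libraries, and 9 of them are among the 73. Without them, a restriction chosen after seeing the data, 64 of 179 were higher (35.8%) and 25 lower (median 0.27), where 30.5% and 35.4% of all 12755 genes under that filter were. Without replicate 1 of compound 1, and with no such restriction, the counts were 64 and 29. Under the restriction 19 of 27 members were higher and 1 lower in cluster 15, 14 of 51 and 9 in cluster 16, and 4 of 19 and 4 in cluster 5. Of the 80 restricted members higher against DMSO, 59 were also higher than with compound 1, and of the 28 lower ones 21 were lower. Members named above for their change against DMSO included ZNF846 (2.07 ± 0.23 against compound 1), ZNF443 (-3.51 ± 0.45) and ZNF787 (-1.51 ± 0.11). ZNF331 was lower with SCH772984 than with compound 1 (-0.55 ± 0.15, edgeR adjusted p = 0.00248). ZNF526 was not called in the main fit (0.21 ± 0.12, interval as above -0.03 to 0.45). It was called higher with SCH772984 by library size alone (0.35, edgeR adjusted p = 0.0157), with at least 10 counts in every library (0.29, edgeR adjusted p = 0.0384) and with the length trend removed (0.28, edgeR adjusted p = 0.0446).

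Finger number and protein length went little with the response. Across the 193 tested members, rho between the log2 fold change with SCH772984 and the number of fingers was 0.10, with protein length 0.03, with the GC content of the longest transcript -0.19 and with the position of the start -0.02. Of the 38 tested members with 17 or more fingers 23 rose and 6 fell (median 0.56), and of the 39 with 8 or fewer 18 rose and 6 fell (median 0.37). All of these values include members that passed the filter only through the SCH772984 libraries. As single cases, ZNF91, with 31 fingers, fell, and ZNF471, with 15, had one of the largest rises. ZNF471 is one of the members that entered only through the SCH772984 libraries.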

How the data were processed

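The authors deposited 1 table of read counts per gene (whole numbers, not normalized) for 9 libraries. Per the submitters' processing notes it was made with HISAT2 2.0.5 and featureCounts 1.5.0-p3 on hg38; strand and multi-mapping settings are not given in the sources used here. Gene positions matched GENCODE 29 for 58724 of 58735 genes. Each pair of groups was fitted on its own 6 libraries with edgeR 4.0.16 (TMM, filterByExpr with minimum count 10 and total 15, robust quasi-likelihood test, R 4.3.3), with Benjamini-Hochberg adjustment over all genes tested and a threshold of 0.05. The fit was tested on simulated data. Standard errors and intervals cover the spread between these libraries. The members and lists were chosen with earlier results of these data known. Named members were the 6 largest rises and falls with SCH772984 at 1 CPM or more without overlap, the largest under the same limits in each cluster of 5 or more members, the 3 smallest p each way with compound 1, the 5 highest levels per kb and a list of characterised genes. Cluster gap (1 Mb), floor (3 counts), 100-base windows compared between GENCODE 29 transcripts, and BLAST 2.17.0 were used as described. Promoters are from RefSeq (GRCh38.p14); 31 members had no entry. The start is that of the promoter table, which equals the RefSeq gene start for 1363 of 1917 genes of chromosome 19. Alternatives included DESeq2 1.42.0, library size alone, no filter, RLE factors, 1 fit of all libraries, trends with length and GC removed, a replicate block and each library left out.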

Additional observations from a re-analysis of the deposited data

How the results depend on the processing

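SCH772984 against DMSO kept its direction: without each library in turn 79 to 86 members were higher and 26 to 29 lower (median 0.33 to 0.38), DESeq2 called 80 and 26, and at least 2-fold changes were 39 and 7. Scaling by library size alone gave a median of 0.57, with the median of all genes shifted by 0.17. Over the members that passed the filter without the SCH772984 libraries, chosen after seeing the data, the median was 0.32. Against compound 1, SCH772984 gave a median of 0.42 by library size alone, 31 and 9 changes of at least 2-fold, and without each library 61 to 69 higher and 22 to 29 lower (median 0.23 to 0.33). With compound 1 no call was made in most settings, but 3 members were higher with no filter, with a replicate block or with the length trend removed, 2 with the GC trend removed and 1 in a fit of all libraries. Leaving out each library gave 0 to 6 higher and 0 to 3 lower (median 0.04 to 0.15), the highest without compound 1 replicate 1, and an unadjusted p gave 19 and 7. Same-numbered libraries did not deviate together (r -0.08 to 0.11), and with a replicate block SCH772984 gave 91 higher and 27 lower. ZNF579, at 0.02, turned to -0.29 with the GC trend removed (edgeR adjusted p = 0.015). A gap of 2 Mb gave 9 clusters and joined clusters 15 and 16, so the contrast between these depends on the gap chosen. A gap of 0.5 Mb gave 20 clusters. The cause of these shifts was not tested. Standard errors were larger for the members than for all genes with SCH772984 (median 0.19 and 0.12 on the log2 scale), so small changes of members are the least certain.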

Other observations

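Genes of chromosome 19 with related names lay outside the rule. Of 22 other zinc finger genes (ZFP, ZSCAN, ZBTB and similar names) 13 were tested with SCH772984, 5 rose and 4 fell (median log2 fold change -0.14). Over all genes tested 37.2% rose and 35.5% fell, so these counts lie near that share. The rises were ZFP14 (1.64), ZFP28 (1.52), ZSCAN18 (1.29), ZBTB32 (1.28) and ZFP30 (0.26), and the KRAB genes ZIM2 and ZIM3 were at 0 in all libraries. Of 15 genes named as antisense or divergent to a ZNF gene 4 were tested and 2 rose, ZNF528-AS1 (1.90 ± 0.25) and ZNF529-AS1 (0.87 ± 0.28). ZNF528-AS1 stood at 1.79 ± 0.13 CPM in DMSO, 2.21 ± 0.17 with compound 1 and 6.74 ± 0.59 with SCH772984 (SD, n = 3), and its libraries did not overlap DMSO. Without a stated strand setting, reads of a gene and of its antisense partner cannot be told apart. Of 15 ZNF pseudogenes 12 had at most 3 counts in every library, and the 1 tested, ZNF137P, rose (1.39 ± 0.42). The 3 read-through genes with hyphenated names were not tested.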
